A study of Mus musculus with 20 samples.

Results

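Ribosome biogenesis was described here through 36 genes of the nucleolus and of the ribosome assembly line in T cells of mice lacking the HLH proteins Id2 and Id3. The 36 were fixed by name, though with earlier results of these data known. Each was found once, by its Ensembl identifier, among the 39179 genes of the deposited table. All 36 belonged to the 15536 kept genes, those with at least 1 group average of 10 normalized counts or more. The table gives 1 average per group and no value for a single library, so that the spread between replicates is unknown, no test could be run, and a difference below is a description of averages. A gene is said to be past 1.5-fold when the ratio of its averages is above 1.5 or below its inverse.

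The 20 RNA-seq libraries, all on a C57BL/6 background, formed 5 groups. Id2-/-Id3-/- CD4SP cells (dKO CD4SP, 3 libraries) were CD4+TCRβ+CD8- thymocytes of mice with Id2 fl/fl and Id3 fl/fl alleles and IL7R-Cre, which deletes in lymphoid progenitors and so also in cells other than CD4SP cells. The thymi of these mice, of the Id3-/- mice and of their controls were 8-wk-old. Id2-/-Id3-/- lymphomas (6 libraries) were sorted tumour T cells, 4 from lymph node, 1 from spleen and 1 from thymus, of which 4 were CD4+ and 2 CD8+. The paper describes such tumours in mice aged 8 mo or more that carried IL7R-Cre or other T-lineage Cre drivers. Neither the driver nor the age behind each tumour is given in the sources used here. Tumour state, age, tissue and cell type therefore cannot be told apart when lymphomas are set against dKO or control CD4SP cells. CD4SP cells labelled Id3-/- (Id3-labelled, 3 libraries) and control CD4SP cells (5 libraries) were thymocytes of the same sort gate. The controls are labelled wild type, while the paper calls control cells littermate or Id3+/-. TFH cells (3 libraries) were CD4+TCRβ+CD44highCXCR5+ cells taken from spleen after sheep red blood cell immunization of wild-type animals, so that cell type and tissue cannot be told apart between TFH and control CD4SP cells. Whether the libraries of a group came from separate animals is not stated.

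The nucleolus is where RNA polymerase I transcribes the ribosomal RNA precursor, where small nucleolar RNPs guide its 2′-O-methylation and pseudouridylation, and where large assemblies fold and cleave it into the small (40S) and large (60S) subunits. Many genes of this programme are known targets of the transcription factor Myc, and lymphocytes enlarge their nucleoli when they leave quiescence. The libraries were made from purified mRNA, so the values are messenger RNA levels of the factors and not of ribosomal RNA or of ribosomes. In averages over sorted cells, more cells that express a gene and more RNA per cell cannot be told apart.

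Several members carry, around their transcription start, the hexamer CACGTG, the canonical E-box of Myc and its partner Max. Their windows are shown because Myc was the regulator fixed for comparison with the members. The sequences come from RefSeq promoters on GRCm38.p6, which held 32 of the 36 members and spans 250 bases before to 50 after the start. CACGTG, a palindrome read alike on both strands, was found in 8 of the 32 (25.0%) against 2187 of 27025 genes (8.09%), and in the same 8 members when the window was shortened to 100 bases before the start (5.00% of all genes). The 8 were *Nop2*, *Ltv1*, *Utp20*, *Pes1*, *Mybbp1a*, *Tsr1*, *Utp18* and *Wdr43*, and each is written 5′ to 3′ on its own strand with the hexamer in capitals. Positions give the hexamer's first base relative to the start, negative before it.
Nop2 (chr6:125131811-125131840, plus strand, hexamer from position -60): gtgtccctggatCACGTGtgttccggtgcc
Utp18 (chr11:93885769-93885798, minus strand, from -20): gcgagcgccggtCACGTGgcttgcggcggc
Pes1 (chr11:3963965-3963994, plus strand, from 3): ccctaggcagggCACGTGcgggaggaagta
Wdr43 (chr17:71616220-71616249, plus strand, from 18): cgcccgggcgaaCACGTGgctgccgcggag
Tsr1 (chr11:74898092-74898121, plus strand, from 25): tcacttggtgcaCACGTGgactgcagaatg
Ltv1 (chr10:13193092-13193121, minus strand, from 29): gccctgtggaccCACGTGtggagctgccgg
Utp20 (chr10:88826765-88826789, minus strand, from 38): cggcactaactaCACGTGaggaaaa
Mybbp1a (chr11:72441355-72441376, plus strand, from 41): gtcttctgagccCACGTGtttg

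In *Nop2* and *Utp18* the hexamer lay before the start, and the 150 bases upstream of each start are shown to place it in its GC-rich surroundings.
Nop2 (chr6:125131733-125131882, plus strand): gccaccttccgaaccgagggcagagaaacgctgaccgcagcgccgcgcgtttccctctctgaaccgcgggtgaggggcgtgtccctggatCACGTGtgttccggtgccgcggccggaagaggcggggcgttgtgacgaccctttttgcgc
Utp18 (chr11:93885767-93885916, minus strand): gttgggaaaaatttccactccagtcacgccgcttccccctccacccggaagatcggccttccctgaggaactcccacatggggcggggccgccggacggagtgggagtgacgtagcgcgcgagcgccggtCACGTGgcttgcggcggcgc

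The E-boxes known from E-protein binding, which Id2 and Id3 restrain, were searched in the same windows. CAGCTG, also a palindrome, was present in 5 of 32 members (*Ddx21*, *Gar1*, *Nob1*, *Pes1* and *Rrp9*, 15.6%) and in 18.3% of all genes. CAGGTG or its reverse complement CACCTG was in 0 of 32 members and in 22.6% of all genes. Here too all genes means the 27025, not matched to the members in expression or in the base composition of their promoters. Of the hexamers searched only CACGTG holds the base pair step CG, and the part of base composition in these shares was not tested. A hexamer in a window is a match of letters and not a binding site.

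The members together made up 0.462% of all normalized counts in Id2-/-Id3-/- CD4SP cells, 0.727% in lymphomas, 0.433% in CD4SP cells labelled Id3-/-, 0.306% in TFH cells and 0.358% in control CD4SP cells. Without the pair that contributed the most counts, *Ncl* and *Npm1*, the shares were 0.318% in dKO CD4SP, 0.464% in lymphoma, 0.307% in Id3-labelled, 0.209% in TFH and 0.255% in control CD4SP. The highest of the 5 averages was the lymphoma average for 35 members and the Id2-/-Id3-/- CD4SP average for 1, *Nop10*. The lowest was the TFH average for 29 members, the control average for 6 and the Id2-/-Id3-/- CD4SP average for 1, *Polr1a*. For 19 members the averages stood in the same full order, with TFH lowest, then control, labelled Id3-/-, Id2-/-Id3-/- CD4SP and lymphoma highest.

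**Figure D1:**
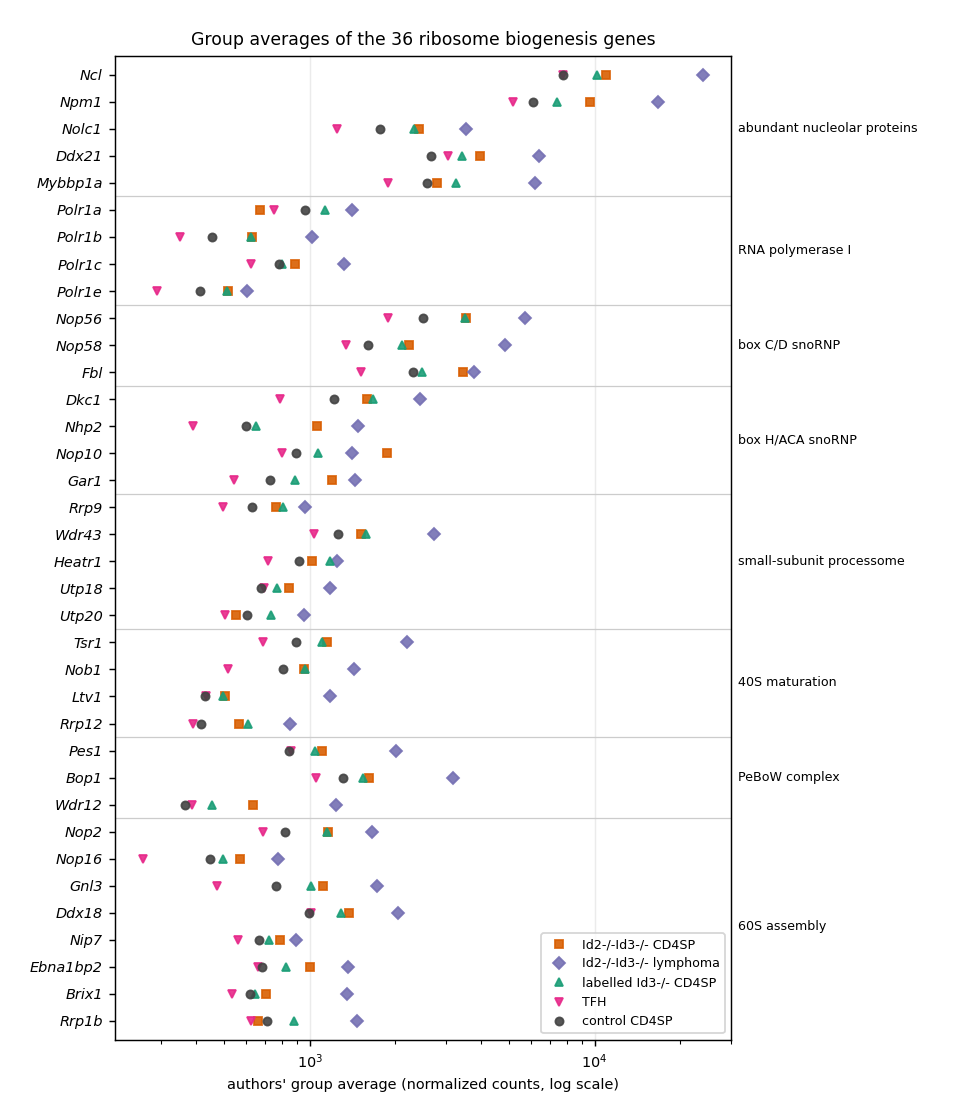
Group averages (DESeq-normalized counts, log axis) of the 36 members, 1 row per gene by role, with 1 symbol per group and no error bars because the table holds 1 average per group. The lymphoma diamonds lie farthest to the right in 35 rows and the TFH triangles farthest to the left in 29.

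In Id2-/-Id3-/- CD4SP cells 33 of 36 members were higher than in control CD4SP cells at any size, where 51.4% of kept genes were. Past 1.5-fold, 6 members (16.7%) were higher and 0 lower, against 24.2% and 19.8% of kept genes. Among the 6272 genes whose control average lay within the members' own range, 9.96% were past 1.5-fold higher. The members' median log2 ratio, with 1 normalized count added, was 0.39 against 0.02 over kept genes, a median ratio of 1.31. The members were thus mostly shifted by a small amount, with fewer of them past 1.5-fold than of kept genes. The excess over genes of like abundance rests on 6 members. It was absent at 2-fold, with 2.78% of members against 3.27% of those genes.

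In lymphomas all 36 members were higher than in control CD4SP cells, where 50.9% of kept genes were. The ratio was past 1.5-fold for 32 members (88.9%) against 28.5% of kept genes and 18.0% of the genes of like abundance. It was past 2-fold for 23 members, against 18.7% of kept genes. No member was past 1.5-fold lower, against 27.1% of kept genes. The median log2 ratio was 1.03 for the members and 0.02 for kept genes. When the averages were rescaled to equal totals, which moved the median of kept genes to -0.18, the members' median was 0.83 and 27 members were past 1.5-fold, while kept genes then split into 22.9% higher and 33.7% lower.

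Set against Id2-/-Id3-/- CD4SP cells instead, lymphomas were higher for 35 members at any size (51.9% of kept genes), past 1.5-fold for 20 (55.6%, against 20.5% of kept genes and 12.9% of genes of like abundance), and past 1.5-fold lower for 0 (22.9% of kept genes). The members' median was 0.62 against 0.03 over kept genes. This comparison shares its lymphoma libraries with that against control cells.

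In CD4SP cells labelled Id3-/- all 36 members were above control at any size (48.6% of kept genes), yet 0 were past 1.5-fold higher (10.7% of kept genes) and 0 past 1.5-fold lower (11.5%). The median log2 ratio was 0.31 against -0.01 over kept genes, with *Polr1c* lowest at 0.04 and *Rrp12* highest at 0.54. With equal totals *Polr1c* alone changed direction. The *Id3* average itself was 2649.7 in the libraries labelled Id3-/- against 1991 in control CD4SP cells. In Id2-/-Id3-/- CD4SP cells *Id3* averaged 879.7 and *Id2* 6.82, against 1991 and 2293 in control cells, and in lymphomas they averaged 857 and 30.5. How much of either transcript the deleted alleles can still make is not given in the sources used here, so the *Id3* average does not check the label.

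TFH cells differed in direction. At any size 6 members were above control CD4SP cells (47.9% of kept genes), and past 1.5-fold 0 were higher (19.3%) and 6 lower (16.7%), against 18.6% of kept genes and 11.2% of genes of like abundance that were past 1.5-fold lower. The 6 were *Fbl*, *Dkc1*, *Nhp2*, *Nob1*, *Gnl3* and *Nop16*. The median log2 ratio was -0.30 against -0.02. The direction of *Ncl*, at 0.00 to 2 decimals, turned under equal totals and under centring on the median of kept genes.

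**Figure D2:**
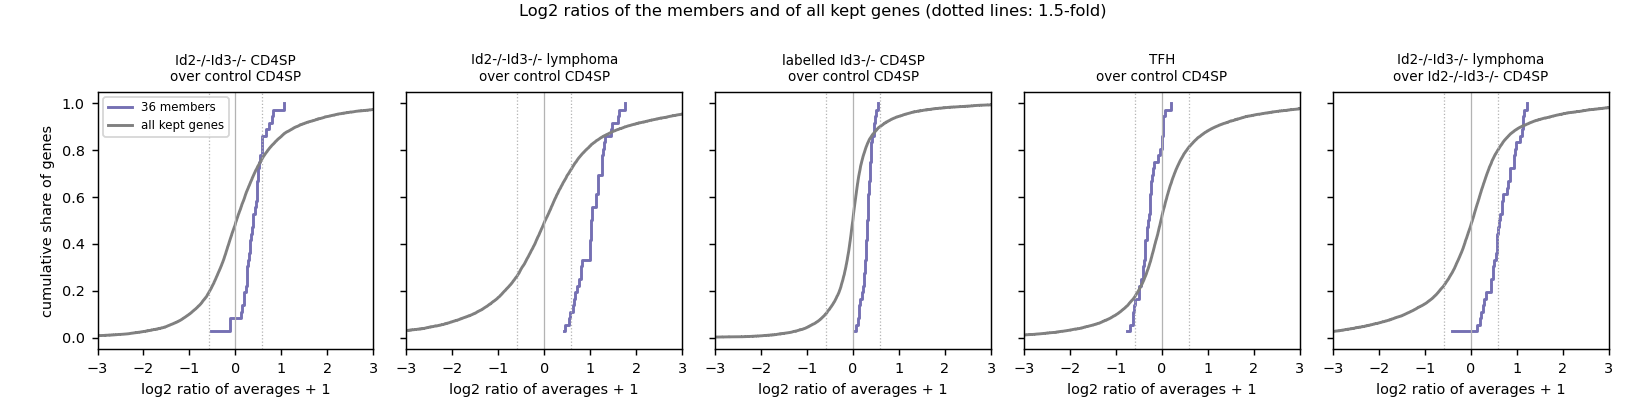
Cumulative share of genes (vertical axis) by log2 ratio of group averages with 1 normalized count added (horizontal axis, drawn from -3 to 3) for the 36 members and for the 15536 kept genes, 1 panel per comparison. The members' curve lies to the right of 0 in the panels of lymphoma and of labelled Id3-/- over control CD4SP and mostly to the left in the TFH panel.

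Among the abundant nucleolar proteins, nucleolin (*Ncl*), an RNA-binding protein of the nucleolus that takes part in rRNA transcription and processing, averaged 10962 normalized counts in Id2-/-Id3-/- CD4SP cells, 24031 in lymphomas, 10219.5 in CD4SP cells labelled Id3-/-, 7747 in TFH cells and 7767 in control CD4SP cells. Nucleophosmin (*Npm1*), a nucleolar chaperone, averaged 9601 in dKO CD4SP, 16728 in lymphoma, 7379 in Id3-labelled, 5158 in TFH and 6059.5 in control CD4SP. The RNA helicase gene *Ddx21*, which acts in both rRNA transcription and processing, averaged 3957 in dKO CD4SP, 6359.6 in lymphoma, 3428 in Id3-labelled, 3050.3 in TFH and 2656 in control CD4SP, and had the highest TFH to control ratio of the 36 (log2 0.20). Averages of *Nolc1*, whose product Nopp140 chaperones snoRNPs, were 2418 in dKO CD4SP, 3551 in lymphoma, 2327 in Id3-labelled, 1244 in TFH and 1770.0 in control CD4SP. Those of *Mybbp1a*, a nucleolar Myb-binding protein, were 2809.8 in dKO CD4SP, 6163 in lymphoma, 3274 in Id3-labelled, 1892 in TFH and 2580.0 in control CD4SP. All 5 were past 1.5-fold in lymphomas over control, at log2 1.00 to 1.63, and *Npm1* alone was in Id2-/-Id3-/- CD4SP cells (log2 0.66). *Ncl* and *Mybbp1a* were each past 2-fold between lymphomas and Id2-/-Id3-/- CD4SP cells, with a log2 ratio of 1.13 for both. *Npm1* has processed pseudogenes, and RSEM shares reads among near-identical copies, so that its values are uncertain by an amount the table does not show.

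The 4 subunits of RNA polymerase I did not move as a block. *Polr1a*, the largest catalytic subunit, averaged 671 in dKO CD4SP, 1411 in lymphoma, 1134 in Id3-labelled, 747 in TFH and 967 in control CD4SP, and was the member with the lowest Id2-/-Id3-/- to control CD4SP ratio (log2 -0.53). *Polr1b*, the second-largest subunit, which completes the active centre, averaged 627 in dKO CD4SP, 1017 in lymphoma, 622 in Id3-labelled, 351 in TFH and 453 in control CD4SP, a log2 ratio of 0.47 in the same comparison. The 2 catalytic subunits thus lay on opposite sides of control in Id2-/-Id3-/- CD4SP cells and on the same side in lymphomas, at log2 0.55 and 1.17. *Polr1c*, shared with RNA polymerase III, averaged 889 in dKO CD4SP, 1317 in lymphoma, 803 in Id3-labelled, 622 in TFH and 779 in control CD4SP. *Polr1e*, a subunit specific to RNA polymerase I, averaged 516 in dKO CD4SP, 605 in lymphoma, 514 in Id3-labelled, 291 in TFH and 412 in control CD4SP. *Polr1a* and *Polr1e* were among the 4 members under 1.5-fold in lymphomas. All 4 subunits were lower in TFH than in control cells, within a narrow range of log2 -0.50 to -0.32.

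The box C/D snoRNP, which carries out 2′-O-methylation, was represented by its methyltransferase fibrillarin (*Fbl*) and the scaffold proteins *Nop56* and *Nop58*. *Fbl* averaged 3454 in dKO CD4SP, 3775 in lymphoma, 2485 in Id3-labelled, 1520.5 in TFH and 2297 in control CD4SP. *Nop56* averaged 3536 in dKO CD4SP, 5677 in lymphoma, 3514 in Id3-labelled, 1889.9 in TFH and 2507 in control CD4SP, and *Nop58* 2228 in dKO CD4SP, 4829 in lymphoma, 2108 in Id3-labelled, 1337 in TFH and 1599 in control CD4SP. The 3 ratios of Id2-/-Id3-/- to control CD4SP cells lay close together, at log2 0.48 to 0.59, whereas those of lymphomas spread between 0.72 for *Fbl* and 1.59 for *Nop58*. *Fbl* was 1 of the 6 members past 1.5-fold in Id2-/-Id3-/- CD4SP cells, by a narrow margin (ratio 1.504). Centring on the median of kept genes left 5 members past it in place of 6. Between lymphomas and Id2-/-Id3-/- CD4SP cells *Fbl* differed by log2 0.13 and *Nop58* by 1.12. In TFH cells *Fbl* was past 1.5-fold lower (log2 -0.60).

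The box H/ACA snoRNP, the pseudouridylation machine that also binds telomerase RNA, held 3 of the 6 members past 1.5-fold in Id2-/-Id3-/- CD4SP cells. *Nop10*, its smallest core protein, averaged 1864 in dKO CD4SP, 1410.1 in lymphoma, 1072 in Id3-labelled, 798 in TFH and 898 in control CD4SP. It was the one member past 2-fold in Id2-/-Id3-/- CD4SP cells (log2 1.05) and the one member lower in lymphomas than in those cells (log2 -0.40). *Nhp2* averaged 1059 in dKO CD4SP, 1481 in lymphoma, 648 in Id3-labelled, 391 in TFH and 596 in control CD4SP, and *Gar1* 1195 in dKO CD4SP, 1439.5 in lymphoma, 891 in Id3-labelled, 543 in TFH and 724 in control CD4SP. The catalytic subunit dyskerin (*Dkc1*) averaged 1593 in dKO CD4SP, 2440.3 in lymphoma, 1672 in Id3-labelled, 786 in TFH and 1218 in control CD4SP, and at log2 0.39 was under 1.5-fold in Id2-/-Id3-/- CD4SP cells. *Nop10*, *Nhp2* and *Gar1* had the shortest annotated exonic lengths of all members (1109, 1146 and 1714 bases), and *Dkc1* had 4121. Shorter kept genes tended to have higher ratios of Id2-/-Id3-/- to control CD4SP cells (Spearman's rho -0.16). The part of length in the H/ACA ratios was not tested. *Dkc1* is the only member on the X chromosome, and *Xist*, the RNA of the inactive X, averaged 19.7 in Id2-/-Id3-/- CD4SP cells against 10461 in control CD4SP cells. It averaged 10477 in lymphomas, 5060 in Id3-labelled and 9909 in TFH cells. The part of sex in the members' ratios was not tested in any comparison. All 4 H/ACA members were past 1.5-fold in lymphomas over control, and *Dkc1* (log2 -0.63) and *Nhp2* (-0.61) were past it, lower, in TFH cells.

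The small-subunit processome, the particle that forms on the nascent rRNA precursor, was represented by 5 members. *Wdr43* averaged 1509 in dKO CD4SP, 2733 in lymphoma, 1582 in Id3-labelled, 1036 in TFH and 1259 in control CD4SP, and had the highest lymphoma to control ratio of the 5 (log2 1.12). *Heatr1* (yeast Utp10), which also supports rRNA transcription, averaged 1018 in dKO CD4SP, 1248 in lymphoma, 1177 in Id3-labelled, 712 in TFH and 921 in control CD4SP, the lowest lymphoma to control ratio of all members (log2 0.44). *Utp20*, a large HEAT-repeat scaffold, averaged 553 in dKO CD4SP, 956 in lymphoma, 730.4 in Id3-labelled, 505 in TFH and 601 in control CD4SP and was below control in Id2-/-Id3-/- CD4SP cells (log2 -0.12). *Utp18* averaged 847 in dKO CD4SP, 1175 in lymphoma, 770.4 in Id3-labelled, 691 in TFH and 677 in control CD4SP. *Rrp9*, the U3 snoRNP-specific protein, averaged 765 in dKO CD4SP, 963 in lymphoma, 807 in Id3-labelled, 498 in TFH and 628 in control CD4SP. None of the 5 was past 1.5-fold in Id2-/-Id3-/- CD4SP cells, at log2 -0.12 to 0.32, and 4 were in lymphomas.

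Later 40S maturation was represented by the nuclease *Nob1*, which makes the 3′ end of 18S rRNA, the assembly factors *Tsr1* and *Ltv1*, which hold the pre-40S particle inactive, and the export factor *Rrp12*. *Ltv1* averaged 503 in dKO CD4SP, 1181 in lymphoma, 499 in Id3-labelled, 432 in TFH and 431 in control CD4SP, the largest lymphoma to Id2-/-Id3-/- CD4SP ratio of the 36 (log2 1.23). *Tsr1* averaged 1151 in dKO CD4SP, 2201 in lymphoma, 1106 in Id3-labelled, 684 in TFH and 896 in control CD4SP. *Nob1* averaged 957 in dKO CD4SP, 1428 in lymphoma, 959.6 in Id3-labelled, 518 in TFH and 804 in control CD4SP, with the TFH average past 1.5-fold lower (log2 -0.63). *Rrp12* averaged 565 in dKO CD4SP, 854 in lymphoma, 606 in Id3-labelled, 391 in TFH and 417 in control CD4SP. All 4 were past 1.5-fold in lymphomas over control (log2 0.83 to 1.46), and none in Id2-/-Id3-/- CD4SP cells (0.23 to 0.44).

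PeBoW, the complex of *Pes1*, *Bop1* and *Wdr12* that is needed for 5.8S and 28S rRNA maturation, had the narrowest spread between lymphomas and Id2-/-Id3-/- CD4SP cells of the 8 roles, with log2 ratios of 0.86, 0.97 and 0.97. *Wdr12* averaged 635 in dKO CD4SP, 1242 in lymphoma, 455 in Id3-labelled, 386 in TFH and 366 in control CD4SP. It had the largest lymphoma to control ratio of all members (log2 1.76) and was past 1.5-fold in Id2-/-Id3-/- CD4SP cells (log2 0.79). *Bop1* averaged 1620.0 in dKO CD4SP, 3178 in lymphoma, 1540.0 in Id3-labelled, 1053 in TFH and 1310.3 in control CD4SP, and *Pes1* 1108 in dKO CD4SP, 2007 in lymphoma, 1047 in Id3-labelled, 859 in TFH and 843 in control CD4SP. In TFH cells *Pes1* and *Wdr12* lay slightly above control and *Bop1* below it (log2 0.03, 0.07 and -0.32).

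The 8 remaining members assemble the 60S subunit. *Gnl3* (nucleostemin), a nucleolar GTPase abundant in proliferating cells, averaged 1115 in dKO CD4SP, 1727 in lymphoma, 1014 in Id3-labelled, 474 in TFH and 764 in control CD4SP. *Nop16* averaged 569 in dKO CD4SP, 772 in lymphoma, 497 in Id3-labelled, 261 in TFH and 446 in control CD4SP, the lowest TFH to control ratio of the 36 (log2 -0.77). *Nop2*, a methyltransferase of 28S rRNA, averaged 1164 in dKO CD4SP, 1656 in lymphoma, 1149.7 in Id3-labelled, 686 in TFH and 818 in control CD4SP. *Gnl3* and *Nop16* were both past 1.5-fold lower in TFH cells, and all 3 genes were past it, higher, in lymphomas. *Ddx18*, an RNA helicase, averaged 1379 in dKO CD4SP, 2036 in lymphoma, 1285 in Id3-labelled, 1007 in TFH and 999 in control CD4SP. *Ebna1bp2* (yeast Ebp2) averaged 1006 in dKO CD4SP, 1365 in lymphoma, 824 in Id3-labelled, 660.4 in TFH and 678 in control CD4SP, and *Brix1* 704 in dKO CD4SP, 1355 in lymphoma, 644 in Id3-labelled, 535 in TFH and 618 in control CD4SP. *Rrp1b*, a nucleolar RRP1 homologue, was the third member below control in Id2-/-Id3-/- CD4SP cells, at 659 in dKO CD4SP, 1461 in lymphoma, 885 in Id3-labelled, 622 in TFH and 711 in control CD4SP. *Nip7* averaged 786 in dKO CD4SP, 899 in lymphoma, 720.1 in Id3-labelled, 560.0 in TFH and 662 in control CD4SP and was the one 60S member under 1.5-fold in lymphomas (log2 0.44). None of the 8 was past 1.5-fold in Id2-/-Id3-/- CD4SP cells (log2 -0.11 to 0.57). Between lymphomas and those cells *Rrp1b* (log2 1.15) and *Brix1* (0.95) had the largest ratios of the 8.

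**Figure D3:**
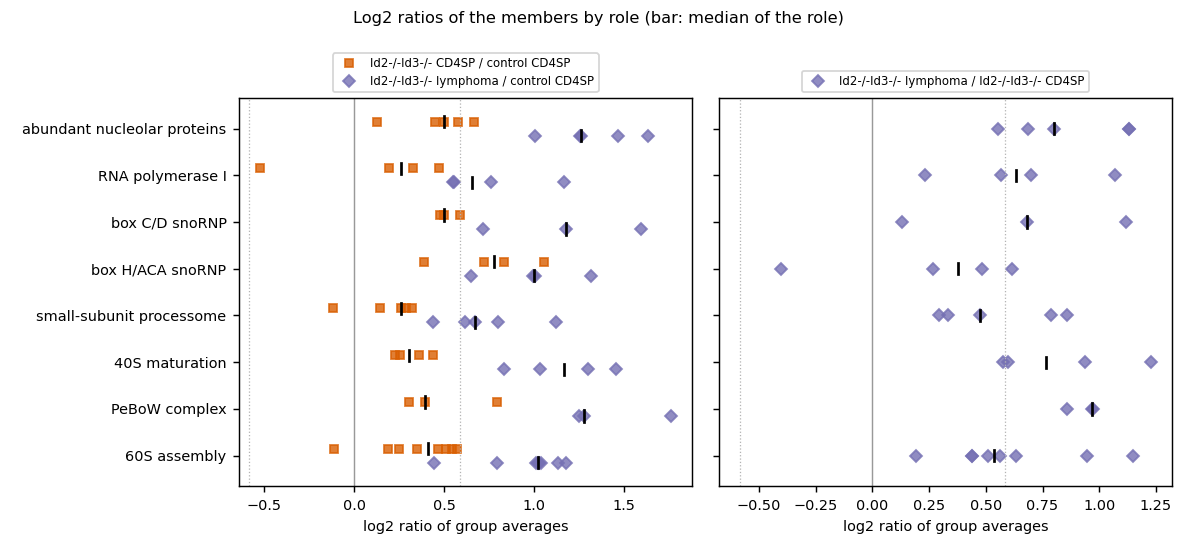
Log2 ratios of group averages (horizontal axes) for the members, 1 point per gene by role, with a bar at each role's median and dotted lines at 1.5-fold. In the left panel Id2-/-Id3-/- CD4SP and lymphoma are each set over control CD4SP, and the H/ACA squares reach 1.05. In the right panel lymphoma is set over Id2-/-Id3-/- CD4SP, and the 3 PeBoW diamonds lie between 0.86 and 0.97.

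Members do not lie together in the genome. In GENCODE coordinates of GRCm38 they fall on 16 chromosomes, and chromosome 11 holds the most, 6. Of the members at an extreme above, *Nop10* (ENSMUSG00000027133, chr2:112261926-112263269, plus strand), *Polr1a* (ENSMUSG00000049553, chr6:71909053-71984935, plus strand), *Wdr12* (ENSMUSG00000026019, chr1:60069785-60098645, minus strand), *Ltv1* (ENSMUSG00000019814, chr10:13178140-13193168, minus strand) and *Nop16* (ENSMUSG00000025869, chr13:54584185-54590090, minus strand) lie on 5 different chromosomes. The close pairs were *Nop58* and *Wdr12* on chromosome 1, 351 kb apart, and *Nip7* and *Nob1* on chromosome 8, 352 kb apart. Of the 36 members, 7 carry annotated snoRNA genes on their own strand, 21 in all, with 5 in *Nop56*, 4 in *Nop58*, 3 each in *Ncl*, *Wdr43* and *Gnl3*, 2 in *Tsr1* and 1 in *Dkc1*. Spearman's rho of log2 ratio with annotated exonic length across the 36 genes, given as a description, was 0.43 for lymphoma over Id2-/-Id3-/- CD4SP (0.05 over 15289 kept genes) and 0.45 for labelled Id3-/- over control CD4SP (0.00). It was -0.20 for Id2-/-Id3-/- over control CD4SP (-0.16 over kept genes), 0.12 for lymphoma over control CD4SP (-0.095) and 0.04 for TFH over control CD4SP (-0.005). The 12 longest members had a median log2 ratio of 0.91 between lymphomas and Id2-/-Id3-/- CD4SP cells, and the 12 shortest 0.54. In the comparisons with control CD4SP cells the medians of the 12 longest and the 12 shortest were 0.37 and 0.41 for Id2-/-Id3-/- CD4SP, 1.17 and 1.02 for lymphoma, 0.35 and 0.24 for labelled Id3-/-, and -0.27 and -0.28 for TFH.

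The 8 members with CACGTG near the start, shown above, had a median log2 ratio of lymphomas to control of 1.18 against 1.01 for the 24 without it. Between lymphomas and Id2-/-Id3-/- CD4SP cells the medians were 0.86 and 0.57, and in Id2-/-Id3-/- over control CD4SP cells 0.29 and 0.46. The ranges overlapped in every comparison, as with 0.67 to 1.46 against 0.44 to 1.76 in lymphomas over control.

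Other genes of the same pathway, from lists that hold no member, were counted in the same way. In lymphomas over control CD4SP cells, 27 of 45 genes of the small-subunit processome and 40S maturation and 32 of 53 of 60S assembly and export were past 1.5-fold higher and 0 lower, where 28.5% of kept genes were higher and 27.1% lower. Their medians were log2 0.62 and 0.71, below the members' 1.03 and above the 0.02 of kept genes. The largest ratio within the small-subunit list was that of *Pno1*, the partner of Nob1 on pre-40S particles (1054 in lymphomas against 401 in control cells), and within the 60S list that of *Nifk*, a nucleolar partner of Ki-67 (2033 in lymphomas against 628 in control cells). Of 16 further genes of RNA polymerase I transcription 5 were higher and 1, the subunit gene *Znrd1* (214 in lymphomas, 456 in control cells), lower. Among snoRNP assembly and rRNA modification genes 5 of 14 were higher, among them *Naf1*, which loads the H/ACA particle (452 in lymphomas against 164 in control cells). Of the RNA exosome and RNase MRP 9 of 23 were higher, and of the snoRNA host transcripts 3 of 8, with 0 lower in each of these 3 lists. The shares higher in these 4 smaller lists lie nearer to the 28.5% of kept genes than those of the subunit lists do.

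In Id2-/-Id3-/- CD4SP cells over control, 24.2% of kept genes were past 1.5-fold higher and 19.8% lower. In the same lists the counts higher were 1 of 16 for RNA polymerase I transcription, 2 of 45 for the small subunit, 5 of 53 for 60S assembly, 1 of 14 for snoRNP assembly, 3 of 23 for exosome and RNase MRP and 2 of 8 for snoRNA hosts, with 1 lower in the last list. *Shq1*, the dyskerin chaperone, averaged 202 in Id2-/-Id3-/- CD4SP cells against 107 in control cells, and *Ddx24*, a nucleolar helicase, 4621 in dKO CD4SP against 2466 in control CD4SP. Between lymphomas and Id2-/-Id3-/- CD4SP cells 16 of 45 and 21 of 53 of the subunit lists were higher, where 20.5% of kept genes were higher and 22.9% lower, with *Ftsj3*, a 60S processing factor, at 2817 in lymphomas against 1117 in dKO CD4SP. The other 4 lists had 3 of 16, 4 of 14, 4 of 23 and 1 of 8 higher in that comparison, and 4 genes over the 6 lists were lower, 2 of them in the polymerase list. In TFH cells, where 18.6% of kept genes were past 1.5-fold lower than in control CD4SP cells and 19.3% higher, 4 of the 8 snoRNA hosts were lower. The lower ones among exosome and RNase MRP genes were 4 of 23, a share near that of kept genes, and lower too were 2 of 14 snoRNP genes, 2 of 45 and 1 of 53 subunit genes and 0 of 16 polymerase genes, while 1 gene of each subunit list was higher. *Snhg6* averaged 221 in TFH cells against 445 in control cells, and *Pop1*, the RNase MRP scaffold, 127 in TFH against 317 in control CD4SP. In the libraries labelled Id3-/- 1 gene of these 6 lists was higher and 1 lower, against 10.7% and 11.5% of kept genes.

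**Figure D4:**
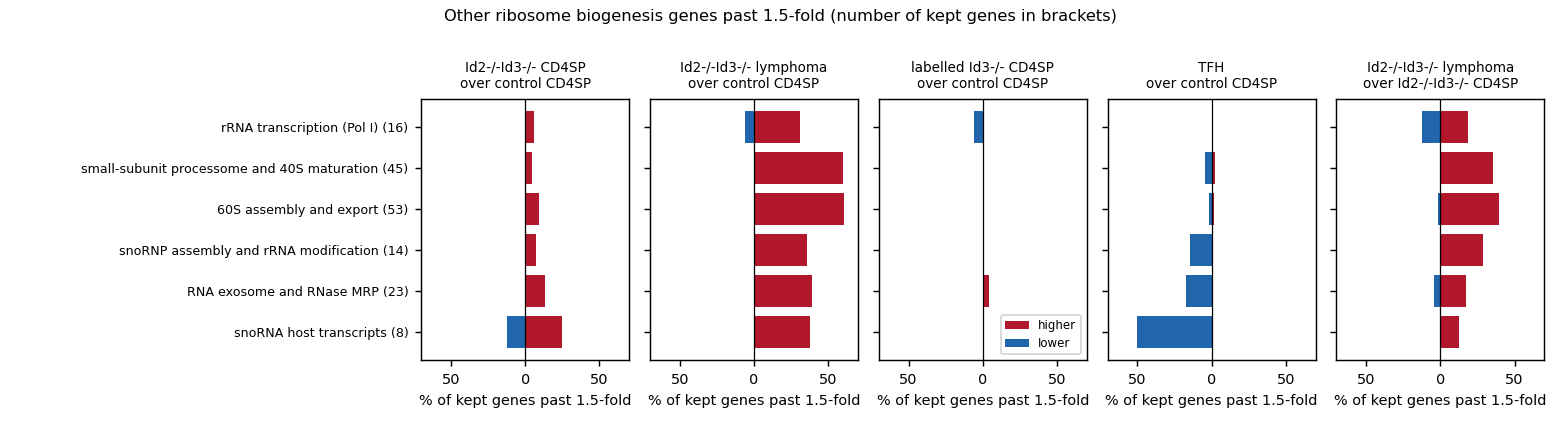
Percent of the kept genes of each list that were past 1.5-fold higher (red, to the right of 0) or lower (blue, to the left) in each of the 5 comparisons, for 6 lists that hold none of the 36 members. The small-subunit and 60S bars for lymphoma over control CD4SP stand for 27 of 45 and 32 of 53 genes.

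*Myc* averaged 3015 in Id2-/-Id3-/- CD4SP cells, 4326 in lymphomas, 2627 in CD4SP cells labelled Id3-/-, 626 in TFH cells and 1576 in control CD4SP cells. The 5 groups stood in the same order by *Myc* as by the members' summed counts, which were 65989 in dKO CD4SP, 112672 in lymphoma, 60386 in Id3-labelled, 40940.3 in TFH and 48131 in control CD4SP. As folds of control, the sum and *Myc* stood at 1.37 and 1.91 in dKO CD4SP, at 2.34 and 2.74 in lymphoma, at 1.25 and 1.67 in Id3-labelled and at 0.851 and 0.397 in TFH cells. Taken singly, 19 members had the groups in that full order. The part of *Myc* in the members' ratios was not tested. Of the 11 kept genes of the Myc network, *Myc* included, 2 were past 1.5-fold higher and 3 lower in lymphomas, shares no larger than or near the 28.5% and 27.1% of kept genes, the lower ones including the Max dimerization genes *Mxd1* (418 in lymphomas against 984 in control cells) and *Mxd4* (2522 in lymphomas against 5189 in control cells). In TFH cells *Mxd1* was 298 and *Mxd4* 3419.

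Of 8 genes that link the nucleolus to p53, 3 were past 1.5-fold higher in Id2-/-Id3-/- CD4SP cells (24.2% of kept genes) and 5 in lymphomas (28.5%). The 5 include *Cdkn2a*, whose lymphoma and control averages were both under 10. *Cdkn2a*, which encodes the Npm1- and Mdm2-binding protein p19Arf as well as p16Ink4a, averaged 192 in Id2-/-Id3-/- CD4SP cells, 6.01 in lymphomas, 17.3 in CD4SP cells labelled Id3-/-, 7.10 in TFH cells and 2.57 in control CD4SP cells. The table does not separate its transcripts, and without single-library values it is unknown how many of the 3 libraries carry the high average. The ribosomal protein genes *Rpl5* and *Rpl11*, whose free proteins bind Mdm2, lay on opposite sides of control in Id2-/-Id3-/- CD4SP cells (*Rpl5* at 269.8 in dKO against 378 in control CD4SP, and *Rpl11* at 5199 in dKO against 2501 in control CD4SP). Both have pseudogenes among which RSEM can share reads.

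Cell cycle genes moved with the members in part. Of 21, 17 were past 1.5-fold higher in Id2-/-Id3-/- CD4SP cells (24.2% of kept genes), 18 in lymphomas (28.5%), 0 in CD4SP cells labelled Id3-/- (10.7%) and 2 in TFH cells (19.3%). Their summed averages were 36824 in dKO CD4SP, 46835 in lymphoma, 25466 in Id3-labelled, 23837 in TFH and 21302 in control CD4SP. Between lymphomas and Id2-/-Id3-/- CD4SP cells 4 of the 21 were past 1.5-fold higher (20.5% of kept genes), against 20 of the 36 members. In Id2-/-Id3-/- CD4SP cells the cell cycle list had the larger median log2 ratio to control, 0.75 against 0.39 for the members. The part of cycling cells in the members' ratios was not tested.

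**Figure D5:**
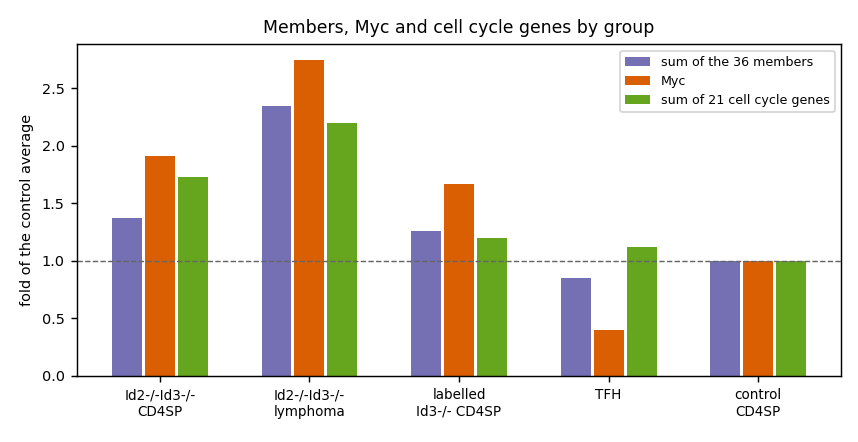
Summed average of the 36 members, average of Myc and summed average of 21 cell cycle genes in each group, each as a fold of its value in control CD4SP cells (dashed line at 1). For the members the bars stand at 1.37 in dKO CD4SP, 2.34 in lymphoma, 1.25 in Id3-labelled, 0.851 in TFH and 1 in control CD4SP.

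Markers of other cells also differed between groups. Of 8 T cell markers, 3 were past 1.5-fold lower than in control CD4SP cells in dKO CD4SP (19.8% of kept genes), 3 in lymphoma (27.1%, with 1 higher), 2 in Id3-labelled (11.5%) and 2 in TFH (18.6%). The 2 in Id3-labelled and in TFH were *Cd8a* and *Cd8b1*. They are genes of the coreceptor that the CD4SP gate excludes, in control cells too, while the TFH label names no CD8 gate. The 3 in dKO CD4SP were that pair and *Cd4*. In lymphoma *Cd3e*, *Cd4* and *Cd5* were lower and *Cd8a* was higher. *Cd3e* stood at 9475 in dKO CD4SP, 5245 in lymphoma, 8776 in Id3-labelled, 9526 in TFH and 10429 in control CD4SP. *Cd3d* stood at 10159 in dKO CD4SP, 8224 in lymphoma, 7169 in Id3-labelled, 6561 in TFH and 7903 in control CD4SP, and *Cd4* at 6565 in dKO CD4SP, 4110.2 in lymphoma, 12552 in Id3-labelled, 20145 in TFH and 15039 in control CD4SP. All 7 kept myeloid markers were past 1.5-fold higher in lymphomas than in control cells (28.5% of kept genes), with summed levels of 227 in dKO CD4SP, 904 in lymphoma, 209 in Id3-labelled, 187 in TFH and 141 in control CD4SP. *S100a9* stood at 230.0 in lymphoma against 2.87 in control CD4SP. All 4 kept erythroid markers were past 1.5-fold higher in lymphomas (28.5% of kept genes) and in the libraries labelled Id3-/- (10.7%) and lower in Id2-/-Id3-/- CD4SP cells (19.8%), with sums of 26.1 in dKO CD4SP, 406 in lymphoma, 216 in Id3-labelled, 25.3 in TFH and 48.3 in control CD4SP. All 11 B cell markers were past 1.5-fold higher in TFH cells (19.3% of kept genes) and 8 in lymphomas (28.5%), and their sums were 8024 in dKO CD4SP, 12994 in lymphoma, 4681 in Id3-labelled, 14145 in TFH and 1936 in control CD4SP. Much of that sum was *Ighm*, at 7408 in dKO CD4SP, 10603 in lymphoma, 3811 in Id3-labelled, 10902 in TFH and 1183 in control CD4SP. *Cd79a* stood at 38.8 in dKO CD4SP, 42.6 in lymphoma, 20.4 in Id3-labelled, 145 in TFH and 38.3 in control CD4SP. *Blk*, by contrast, stood at 802 in lymphoma against 11.5 in control CD4SP, and *Cd79b*, at 455 in lymphoma, was also above control. *Cd22* stood at 1421 in TFH against 15.8 in control CD4SP. *Cd8a* averaged 1388 in lymphomas, of which 2 were CD8+, and 19.2 in Id2-/-Id3-/- CD4SP cells against 128 in control cells. *Epcam* (3797 in lymphomas, 593 in Id2-/-Id3-/- CD4SP cells, 70.7 in control cells) and *Col1a1* were high where the keratin genes *Krt5*, *Krt8* and *Krt14* were each under 10 in every group. The part of these cells and markers in the members' ratios was not tested.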

How the data were processed

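Strand-specific libraries from purified mRNA were sequenced on an Illumina instrument by the authors, who aligned them with OSA in Array Studio to mm10, quantified them with RSEM and normalized them with DESeq (versions not given in the sources used here). In the deposited table stands, for each of 39179 genes, the DESeq-normalized count signal averaged by the authors within each of 5 groups. The table also holds the fold changes, p-values and false discovery rates of the authors' own comparisons, which were not used. Depth per library is therefore unknown, and no SD, interval or test could be computed. The methods state that genes under 10 in all samples were removed, although the table lists genes at 0. Symbols were found for 37607 identifiers.

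Ratios of averages were computed in Python 3.11.15 with pandas 2.3.3, over 15536 kept genes (at least 1 average of 10 or more), with a threshold of 1.5-fold and 1 normalized count added for list medians. The counting steps were tested on simulated data. Coordinates, exonic lengths and snoRNA genes came from GENCODE on GRCm38 (mm10), and promoters from RefSeq on GRCm38.p6. Values are given for all 36 members, for the extremes of each wider list and for *Myc*, *Cdkn2a*, *Id2* and *Id3*. The members and lists were chosen with earlier results of these data known, and the set of genes of like abundance after the averages were seen. Alternatives tried were a 2-fold threshold, equal totals, centring on the median of kept genes, other filters on low averages and a larger added count.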

Additional observations from a re-analysis of the deposited data

How the results depend on the processing

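Of 92 alternative values computed for the members' counts and medians in the 5 comparisons and for the number with CACGTG, 86 stayed within 1.5 times the reported count or within 0.1 of the reported median log2 ratio, 6 moved further and 0 reversed. The 86 include values that could not have moved. The other filters on low averages left out no member, as the lowest member average was 261, that of *Nop16* in TFH cells. Changing the added count could also move ratios little at such levels. Counts that moved within 1.5 times the reported count include 27 (equal totals) and 23 (2-fold) in place of 32 for lymphomas over control CD4SP cells, 14 (equal totals) in place of 20 for lymphomas over Id2-/-Id3-/- CD4SP cells, and 4 (equal totals) in place of 6 for Id2-/-Id3-/- over control CD4SP cells. With a 2-fold threshold the number of members higher in Id2-/-Id3-/- CD4SP than in control CD4SP cells was 1 in place of 6, the number lower in TFH than in control CD4SP cells was 0 in place of 6, and the number higher in lymphomas than in Id2-/-Id3-/- CD4SP cells was 6 in place of 20. With the group averages rescaled to equal totals, 1 member, *Polr1a*, was past 1.5-fold lower in Id2-/-Id3-/- CD4SP cells, and the members' median log2 ratio was 0.83 in place of 1.03 for lymphomas over control CD4SP cells and 0.51 in place of 0.62 for lymphomas over Id2-/-Id3-/- CD4SP cells. That rescaling lowered every log2 ratio of lymphomas by 0.20 against control and by 0.12 against Id2-/-Id3-/- CD4SP cells. The median for Id2-/-Id3-/- over control CD4SP cells was 0.39 also without the 4 members of longest annotated exonic sequence, an alternative chosen after seeing the data. Leaving out single libraries was not possible, and no paired analysis was possible because the columns hold group averages and carry no replicate number. The precision of every ratio is unknown for the same reason.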
